A study of Mus musculus with 4 samples.

Results

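Thbs2, Tnfsf15 and Igfbp6 encode secreted or shed proteins that restrain the growth of blood vessels, and all 3 had higher values in hcatTg than in wild type mouse aortic endothelial cells. They are 3 of the 398 probe sets that the authors' deposited table pairs with a gene symbol, out of 35557 transcript clusters (groups of probes along a gene, each summarised as 1 value) in the deposited value table. They were picked by symbol from that table because their values were higher in hcatTg, so everything given here on their difference between genotypes describes these arrays and carries no test. The hcatTg cells overexpress human catalase, the enzyme that breaks down hydrogen peroxide, and were measured on 2 arrays, as were the wild type cells. Both genotypes were aortic endothelial cells labelled C57BL/6J. All were rested in serum-free medium for 12 h at 80% confluence and then given 10% fetal bovine serum for 12 h before RNA extraction. The promoter that drives the transgene, the age of the animals and their number were not stated in the labels, which give the RNA samples only as independent.

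Thrombospondin 2, the product of Thbs2, is a large matrix-associated glycoprotein that binds the receptors CD36 and CD47 on endothelial cells, slows their proliferation and helps to clear matrix metalloproteinase 2. Tnfsf15 encodes TL1A, also called vascular endothelial growth inhibitor, a cytokine of the tumour necrosis factor superfamily that endothelial cells make and that binds death receptor 3 (Tnfrsf25). Igfbp6 encodes a secreted binding protein that prefers insulin-like growth factor 2 (IGF-II) over insulin-like growth factor 1 and has been described as anti-angiogenic in endothelial cells.

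The promoter sequence of each gene is shown because the 3 genes differed in the same direction, and the sequences let their upstream regions be compared. Each window runs from 250 bases before to 50 bases after the annotated start site, read 5′ to 3′ on the strand of the gene, from RefSeq on GRCm38.p6. The window of Thbs2 is chr17:14694213-14694512 on the minus strand, that of Tnfsf15 is chr4:63745010-63745309 on the minus strand, and that of Igfbp6 is chr15:102143936-102144235 on the plus strand. Capitals mark every match to any of the 10 motifs described after the sequences.
Thbs2: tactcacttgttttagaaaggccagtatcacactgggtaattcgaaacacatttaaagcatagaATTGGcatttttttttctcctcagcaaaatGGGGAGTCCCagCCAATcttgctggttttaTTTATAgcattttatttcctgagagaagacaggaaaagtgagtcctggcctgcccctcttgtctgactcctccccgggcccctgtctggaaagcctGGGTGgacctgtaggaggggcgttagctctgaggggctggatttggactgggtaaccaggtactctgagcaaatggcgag
Tnfsf15: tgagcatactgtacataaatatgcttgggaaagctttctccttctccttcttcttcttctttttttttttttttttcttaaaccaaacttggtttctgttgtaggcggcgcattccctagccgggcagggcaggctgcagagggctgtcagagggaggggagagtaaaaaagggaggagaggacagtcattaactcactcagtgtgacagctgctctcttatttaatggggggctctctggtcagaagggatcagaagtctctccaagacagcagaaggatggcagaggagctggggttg
Igfbp6: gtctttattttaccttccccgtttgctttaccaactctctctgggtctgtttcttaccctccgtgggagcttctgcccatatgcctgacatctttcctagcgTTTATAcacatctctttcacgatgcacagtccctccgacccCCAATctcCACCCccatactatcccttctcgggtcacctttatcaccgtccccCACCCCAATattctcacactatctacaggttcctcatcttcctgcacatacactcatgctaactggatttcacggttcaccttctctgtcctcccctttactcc

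The motifs were searched on both strands. The core promoter box of the TATA type was searched as TATAAA, and the boxes named CCAAT and, for Krüppel-like factors, CACCC by the letters of their names. The motif of Sp1 was searched as GGGCGG, that of AP-1 as TGANTCA, and the core of the antioxidant response element as TGACNNNGC. The GATA factor motif was searched as AGATAA and the ETS factor motif as CCGGAA. The CArG box and the NF-kB motif were searched by their usual consensus. An AP-1 and an antioxidant response element match can overlap. No motif was found in all 3 windows, and the Tnfsf15 window held none of the 10. Thbs2 and Igfbp6 each had 1 TATA box match on the opposite strand, at position -126 from the start site in Thbs2 and -148 in Igfbp6. Such a match is held by 13.6% of the 32851 promoter windows of this length. Thbs2 and Igfbp6 each also had 2 CCAAT box matches (37.4% of all windows hold at least 1) and at least 1 CACCC box match (57.5%). In Igfbp6, 1 CACCC match overlapped a CCAAT match. An NF-kB match, GGGGAGTCCC starting at position -156 from the start site, was found in Thbs2, and 8.46% of all windows hold such a match. The GC content was 48.3% for Thbs2, 48.0% for Tnfsf15 and 49.7% for Igfbp6, against a median of 52.7% over all windows, and they held 4, 3 and 8 CpG dinucleotides, against a median of 7. These letters describe the windows and say nothing about which factors bound there.

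Before the genes are taken in turn, some features of the arrays bear on them. The median of all clusters was 5.40 and 6.00 on hcatTg arrays 1 and 2 and 5.75 and 6.02 on wild type arrays 1 and 2. The median difference of all clusters was -0.37 log2 units in the first pair and 0.01 in the second. Bringing the array medians together (median centring) or the whole distributions together (quantile normalization) removes this shift. Pairs are array 1 with array 1 and array 2 with array 2, as in the authors' table, which calls them a first and a second time. Sex-linked genes also separated the genotypes: Xist, which silences an X chromosome in female cells, lay at 10.33 and 11.45 in hcatTg cells and at 4.71 and 4.66 in wild type cells, and the 4 named Y-linked genes were lower in both hcatTg arrays. Genotype and this sex-linked difference cannot be told apart for any gene. A gene's value in a culture also cannot tell a change in RNA per cell from a change in the share of cells that make it. Background signal was not measured, so a value below its array's median is not shown to be above background. Among others, this applies to both wild type values of Pgr, Stc2, Tnfsf18 and Msln given below, and to both hcatTg values of Adamts9 and Vegfc. It also applies to Angpt2 on wild type array 1 and Htra1 on hcatTg array 1.

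**Figure D1:**
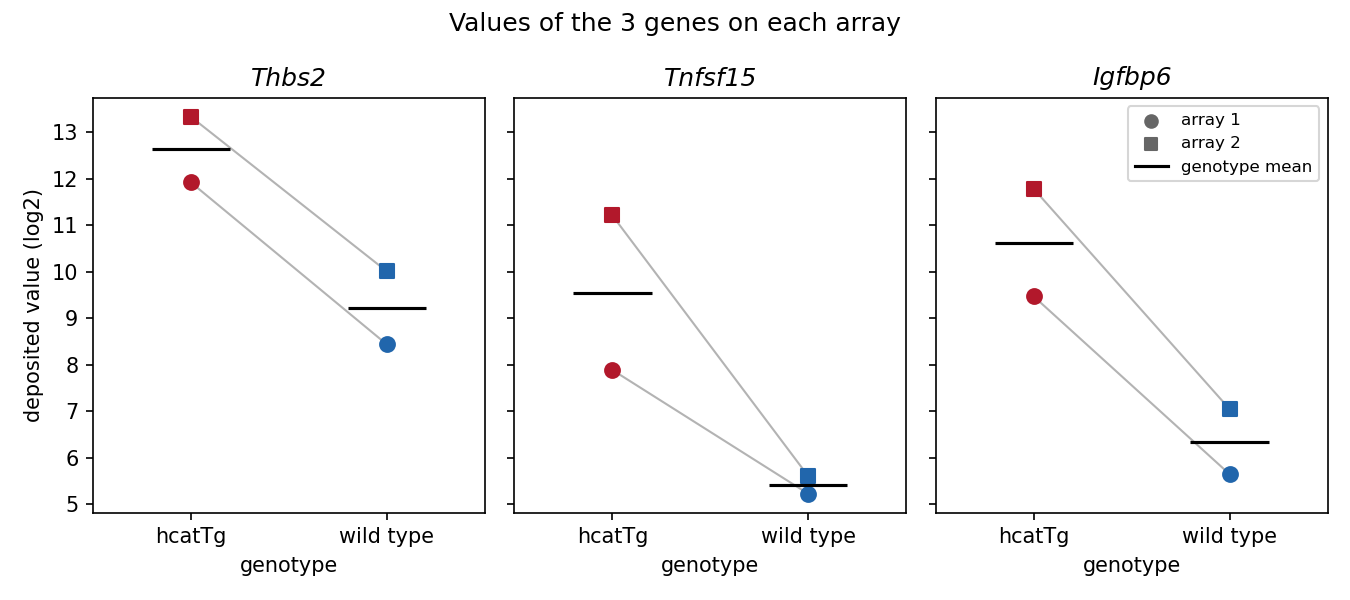
Deposited log2 values (y axis) of Thbs2, Tnfsf15 and Igfbp6 in hcatTg and wild type cells (x axis), with circles for array 1, squares for array 2, grey lines joining the arrays of a pair and black bars for the mean of 2 arrays. In each gene both hcatTg points lie above both wild type points, and the hcatTg points of Tnfsf15 lie farthest apart, at 7.89 and 11.21.

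Thbs2 had log2 values of 11.92 and 13.33 on the hcatTg arrays, against 8.44 and 10.01 on the wild type arrays. Both hcatTg arrays lay above both wild type arrays, as they did in 2.53% of all clusters, and the second array was higher than the first in each genotype. The means were 12.63 ± 0.997 in hcatTg and 9.22 ± 1.11 in wild type (SD, n = 2 each), a difference of 3.40 log2 units or 10.6-fold. The array-to-array shift was nearly the same in both genotypes, 1.41 in hcatTg and 1.57 in wild type, so the pair differences were close: 3.48 in the first pair and 3.33 in the second. As deposited, 82.1% of all clusters had pair differences at least as unequal as this. After median centring the pairs of Thbs2 differed by 3.83 and 3.34, and 22.2% of clusters were at least as unequal. After quantile normalization they were 3.55 and 3.49, and 84.6% of clusters were at least as unequal.

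Tnfsf15 lay at 7.89 and 11.21 in hcatTg cells, against 5.23 and 5.61 in wild type cells. The groups did not overlap, but the hcatTg arrays were far apart while the wild type arrays were close together. Its mean was 9.55 ± 2.35 in hcatTg and 5.42 ± 0.271 in wild type (SD, n = 2 each), a difference of 4.13 log2 units or 17.5-fold. In the first pair hcatTg was higher by 2.66 (6.34-fold), and in the second by 5.60 (48.6-fold). The gap of 2.94 between the pairs was reached or passed, in either direction, by 102 of the 35557 clusters (0.287%). Median centring left a gap of 2.61 (0.588% of clusters had one at least as large) and quantile normalization one of 2.12 (1.12%). Without hcatTg array 2 the mean difference was 2.47, and without hcatTg array 1 it was 5.79, so the size for Tnfsf15 rests on which hcatTg array is read. The wild type values were below the medians of their arrays. Background signal was not measured for these values, so whether wild type cells held Tnfsf15 RNA above background is not shown, and the fold holds for the deposited values only.

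Igfbp6 lay at 9.47 and 11.78 in hcatTg cells, against 5.65 and 7.05 in wild type cells. Again both hcatTg arrays were above both wild type arrays, by at least 2.42 log2 units. Its mean was 10.62 ± 1.63 in hcatTg and 6.35 ± 0.987 in wild type (SD, n = 2 each), a difference of 4.27 log2 units or 19.3-fold. The first pair differed by 3.82 (14.1-fold) and the second by 4.73 (26.5-fold). On wild type array 1 the value was below the array's median of 5.75, so there too a level above background is not shown. The gap between its pairs, 0.91, lay between those of the other 2 genes, and 11.6% of clusters had one at least as large. Median centring made this gap 0.58, and quantile normalization made it 0.36.

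The differences of the 3 genes kept their direction on each scale and in each pair. The genes came from a table of probe sets at least 2-fold different in both pairs, so this lends no support to the direction. After quantile normalization the differences were 3.52 for Thbs2, 4.31 for Tnfsf15 and 4.48 for Igfbp6, and after median centring 3.59, 4.32 and 4.46. The authors' deposited table, whose first-pair signals are on another normalization (RMA, robust multi-array average), gives folds of 10.2 and 10.0 for Thbs2 in the first and second pair. It gives 6.93 and 48.6 for Tnfsf15, and 13.9 and 26.5 for Igfbp6. By the average fold in the authors' deposited table, Tnfsf15 is in place 2, Igfbp6 in place 4 and Thbs2 in place 11 among the 93 probe sets listed as higher in hcatTg.

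Among all 35557 clusters, 134 (0.377%) were at least 2-fold higher in hcatTg in both pairs, and the 3 genes are among them by the way the table was made. At 8-fold in both pairs there were 7 clusters (0.0197%), and Igfbp6 and Thbs2 were among these 7. Ordered by the smaller of the pair differences, Igfbp6 was in place 3, Thbs2 in place 5 and Tnfsf15 in place 13 of all clusters. By the mean difference Igfbp6 was in place 2, Tnfsf15 in place 3 and Thbs2 in place 10. The order of Thbs2 and Tnfsf15 therefore depends on whether both pairs are required to show the difference, while Igfbp6 came before them in both orders. The 3 mean differences lie within the spread between arrays of a genotype of each other. Part of that spread is a shift shared by same-numbered arrays, which cancels within a pair. Within each pair Igfbp6 differed more than Thbs2, by 3.82 and 4.73 against 3.48 and 3.33.

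The named probe sets next to Igfbp6 in the order of the smaller pair difference were Xist (5.62) and Dlk1 (3.85) above it, at 3.82, and Npy1r (3.46) and Thbs2 (3.33) below it. Below Thbs2 came Angpt2 (3.30) and Pi15 (3.18). Tnfsf15, at 2.66, stood below Upk1b (2.74), a listed mesothelial marker, and the progesterone receptor gene Pgr (2.69). Pde7b (2.66) and Lrp2 (2.64) came after Tnfsf15.

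**Figure D2:**
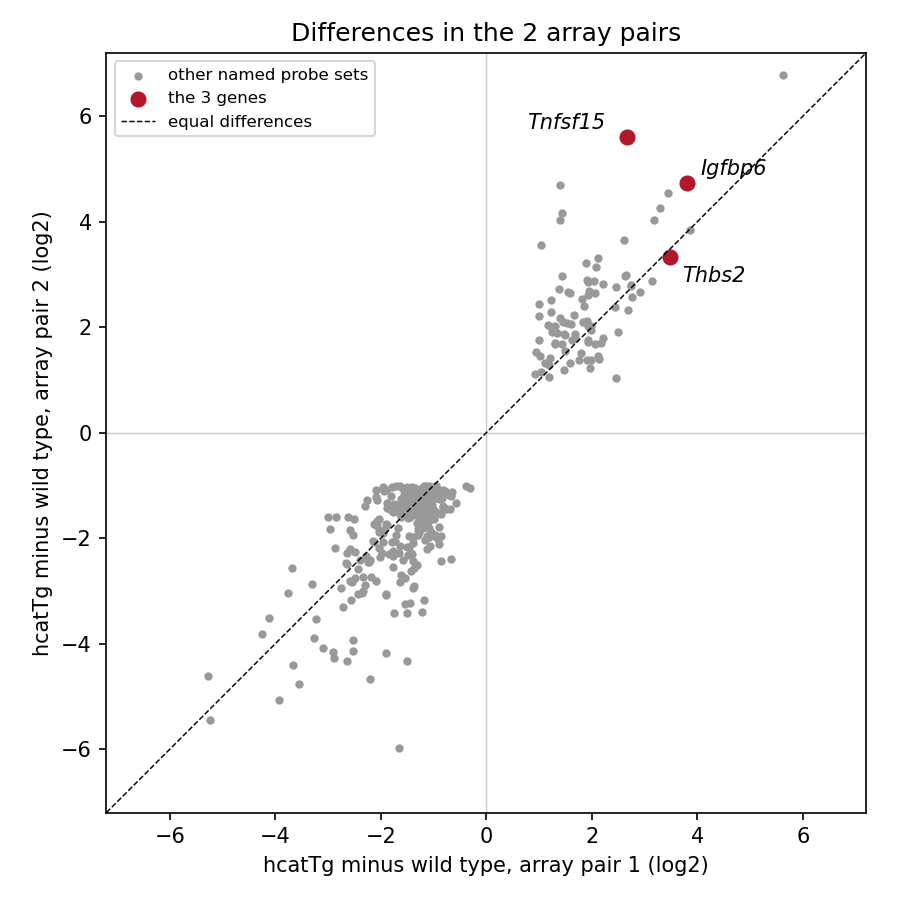
Difference of hcatTg minus wild type in array pair 1 (x axis, log2) against array pair 2 (y axis, log2) for the 398 named probe sets, with the 3 genes in red and the dashed line marking equal differences. Thbs2 lies near the line at 3.48 and 3.33, Igfbp6 above it at 3.82 and 4.73, and Tnfsf15 far above it at 2.66 and 5.60.

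A larger difference in the second pair was common as deposited. Of the 93 named probe sets that the table gives as higher, 68 had the larger difference in the second pair, with a median gap of 0.40 log2 units. With median centring there were 51, with a median gap of 0.07, and with quantile normalization 43, with a median gap of -0.05. On each of these 3 scales, 1 of the 93 had a larger gap in that direction than Tnfsf15. The 93 had a median mean difference of 1.97, and 84 of them had a smaller mean difference than Thbs2.

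Likeness of pattern was measured as the Euclidean distance between profiles over the 4 arrays, after median centring and removal of each gene's own mean, so small values mean alike. The 3 genes were 1.08 log2 units apart for Igfbp6 and Thbs2, 1.02 for Igfbp6 and Tnfsf15, and 1.75 for Thbs2 and Tnfsf15. Leaving out these 3 genes themselves, the named genes closest to Thbs2 were Mmp2 (0.546), which encodes the matrix metalloproteinase that thrombospondin 2 helps to clear, then Pi15 (0.561), a peptidase inhibitor gene, and Pde7b (0.648), a phosphodiesterase gene. Mmp2, also a listed fibroblast marker, lay at 10.11 and 11.09 in hcatTg cells, against 6.97 and 8.22 in wild type cells. Of the genes other than these 3, the closest to Tnfsf15 were Pgr (0.805), Angpt2 (1.05) and Pi15 (1.19). Pgr was uneven as well, at 7.69 and 10.17 in hcatTg, against 5.0 and 4.62 in wild type. On the same terms, Igfbp6 was closest to Angpt2 (0.491), the gene of the Tie2 ligand angiopoietin 2, Pi15 (0.703) and Npy1r (1.08), a neuropeptide Y receptor gene. Of all clusters, named or not, 0 were closer to Thbs2 than Mmp2, to Tnfsf15 than Pgr or to Igfbp6 than Angpt2. The 3 genes were chosen for a large difference between genotypes, which also enters the distance. With 4 arrays of 2 genotypes such a distance is only a description.

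Other secreted proteins that restrain vessel growth did not share 1 direction. Of 35 listed inhibitors, some of which act as such only in certain settings, 9 are named in the authors' table, 5 higher and 4 lower in hcatTg. Besides the 3 genes, these were 2 higher and 4 lower. Of all its named probe sets, 23.4% were higher, and the table was selected on these arrays, so the counts are not independent evidence of direction. By limma (a linear model with moderated variances, fitted to all 35557 clusters, threshold 0.05 on the Benjamini-Hochberg adjusted p), 3 clusters were called in all (0.00844%). Sex-linked genes made up 2 of these 3, Xist (limma adjusted p = 0.0117) and Ddx3y (limma adjusted p = 0.0333). None of the 6 other inhibitors was among the 3 called clusters. An unadjusted p below 0.05 was found for 4 of the 6, as for 75.4% of the named probe sets and 1.81% of all clusters. With the array pair as a block, limma called all 6 of these inhibitors, as it did 95% of the named probe sets and 3.27% of all clusters. In the listed genes the adjusted p of the block followed the size of the mean difference, however uneven the pairs. Kdr (2.31, pairs 1.05 and 3.57) had a limma block adjusted p of 5.47e-10, and Stc2 (2.32, pairs 1.95 and 2.68) one of 4.44e-10. The table holds only probe sets at least 2-fold different in both pairs, so block calls add nothing to that selection. With block and median centring limma called 1 of the 6, Angpt2 (adjusted p = 0.0386), with 4.77% of the named probe sets and 0.0675% of all clusters.

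On the higher side, Angpt2 lay at 8.95 and 11.27 in hcatTg cells, against 5.64 and 7.0 in wild type cells. That is a difference of 3.78 ± 0.752 log2 units (SE, limma adjusted p = 0.403), and angiopoietin 2 can destabilise or promote vessels depending on the growth factors present. Igfbp4, which encodes another insulin-like growth factor binding protein, lay at 9.87 and 11.27 in hcatTg, against 8.43 and 9.60 in wild type. In both genes the hcatTg arrays lay above the wild type arrays. So they did in 84 of the 93 named probe sets listed as higher, and in 2.53% of all clusters.

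On the lower side, Adamts9, which encodes a secreted metalloproteinase with thrombospondin repeats, lay at 3.94 and 4.53 in hcatTg, against 7.04 and 8.62 in wild type. Its difference was -3.59 ± 0.579 log2 units (SE, limma adjusted p = 0.208). Sema3e, the gene of a semaphorin that repels endothelial cells through plexin D1, lay at 6.11 and 6.15 in hcatTg, against 8.56 and 8.73 in wild type. In both genes the hcatTg arrays lay below the wild type arrays, as they did in 17.8% of all clusters. Serpinf1, which encodes pigment epithelium-derived factor, had 7.07 and 9.75 in hcatTg, against 9.16 and 10.83 in wild type. Adamts1, the gene of a metalloproteinase related in its repeats to thrombospondin, had 6.73 and 8.09 in hcatTg, against 8.01 and 9.38 in wild type. The groups of Serpinf1 and Adamts1 overlapped, although hcatTg was the lower within each pair.

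**Figure D3:**
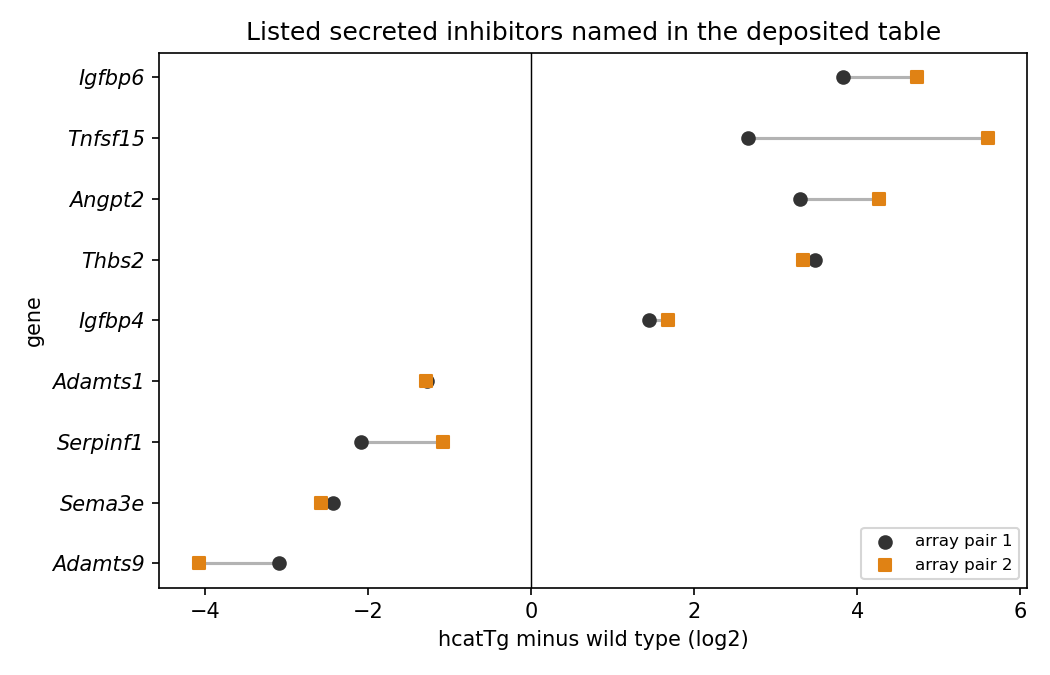
Difference of hcatTg minus wild type (x axis, log2) in array pair 1 (circles) and array pair 2 (squares) for the 9 listed secreted inhibitors that the authors' table names (y axis, ordered by mean difference). Igfbp6, Tnfsf15, Angpt2, Thbs2 and Igfbp4 lie above 0 in both pairs and Adamts1, Serpinf1, Sema3e and Adamts9 below 0 in both.

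Genes around each of the 3 were also listed, and their counts are to be read against the 75.4% of named probe sets and 1.81% of all clusters at an unadjusted limma p below 0.05. The block called 95% of the named probe sets, and the block with median centring 4.77%. Calls by the block alone followed the size of the mean difference, as above, so they add nothing to the selection of the table. Of 20 genes of thrombospondins, their receptors and related enzymes, 5 are in the table, 3 higher and 2 lower, and limma called 0 of the 4 other than Thbs2, with 3 at an unadjusted p below 0.05 (75.4% of named probe sets). The block called 3 of these 4, and 0 with median centring added. Itga3, an integrin alpha subunit gene, was the third higher one beside Thbs2 and Mmp2, at 8.52 and 9.19 in hcatTg, against 7.33 and 7.90 in wild type. The receptor gene Cd47 lay at 8.83 and 9.75 in hcatTg, against 9.79 and 10.75 in wild type, and its groups were separated only narrowly. Tgfb3, which encodes transforming growth factor beta 3, lay at 6.39 and 8.06 in hcatTg, against 8.91 and 10.00 in wild type.

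Of 28 tumour necrosis factor superfamily ligands, receptors and adaptors, 3 are in the table, and limma called 0 of the 2 other than Tnfsf15, both with an unadjusted p below 0.05 (75.4% of named probe sets). The block called both, and 0 with median centring added. Tnfsf18, the gene of the ligand of GITR, lay at 6.25 and 7.68 in hcatTg, against 4.67 and 5.03 in wild type. Like Tnfsf15, it was higher in hcatTg on both arrays and had the larger difference in the second pair, 2.65 against 1.58 in the first. Tnfrsf11b, which encodes the decoy receptor osteoprotegerin, lay at 7.32 and 8.48 in hcatTg, against 9.22 and 9.56 in wild type. Tnfrsf25, the gene of the TL1A receptor, was not analysed here.

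Of 21 genes of the insulin-like growth factor system, 4 are in the table, 3 higher and 1 lower, and limma called 0 of the 3 other than Igfbp6, with all 3 at an unadjusted p below 0.05 (75.4% of named probe sets). The block called all 3, and 0 with median centring added. Beside Igfbp6 and Igfbp4, the higher one was Stc2, the gene of stanniocalcin 2, which inhibits the protease that cleaves Igfbp4. Stc2 lay at 7.41 and 8.09 in hcatTg, against 5.46 and 5.41 in wild type, a difference of 2.32 ± 0.462 log2 units (SE, limma adjusted p = 0.403). Htra1, a secreted serine protease gene, lay at 4.69 and 6.87 in hcatTg, against 6.72 and 8.75 in wild type, and its groups overlapped.

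Of 28 genes that promote vessel growth or carry its signals, 8 are in the table, 1 higher and 7 lower, with a median difference of -1.37 log2 units, against -1.36 for the 398 named probe sets, 305 of which are listed as lower, and -0.18 for all clusters. Limma called 0 of the 8, with 7 at an unadjusted p below 0.05, against 75.4% of named probe sets and 1.81% of all clusters. The block called 7 of the 8 (95% of named probe sets), and 0 with median centring added (4.77%). The vascular endothelial growth factor (VEGF) receptor gene Kdr was the higher one, at 6.68 and 8.24 in hcatTg, against 5.63 and 4.67 in wild type. Vegfc, a lymphangiogenic growth factor gene, was at 4.53 and 5.70 in hcatTg, against 7.39 and 7.88 in wild type. Jag1, a Notch ligand gene, was at 5.92 and 7.04 in hcatTg, against 7.71 and 9.11 in wild type. Hgf, the hepatocyte growth factor gene, was at 6.13 and 6.66 in hcatTg, against 7.56 and 8.93 in wild type.

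Named markers of other cell types differed between the genotypes in both directions, none of them called by limma as deposited, and their part in the values of Thbs2, Tnfsf15 and Igfbp6 was not tested. An unadjusted limma p below 0.05 was found for 6 of 6 named mesothelial, 3 of 4 smooth muscle, 3 of 3 fibroblast and 3 of 3 leukocyte markers, against 75.4% of the named probe sets. The block called the same numbers, and with median centring added 1 mesothelial marker and 0 of the others. Of 6 named mesothelial markers (of 11 listed), 4 were higher and 2 lower, with a mean log2 level of 8.71 and 8.76 in hcatTg, against 7.90 and 8.09 in wild type. Msln, the mesothelin gene, lay at 8.28 and 8.04 in hcatTg, against 5.59 and 5.70 in wild type. Upk3b, another mesothelial marker, lay at 7.69 and 7.83 in hcatTg, against 10.23 and 10.65 in wild type. The 4 named smooth muscle markers (of 12) were all lower, as were 305 of the 398 named probe sets. Their mean level was 5.09 and 6.24 in hcatTg, against 6.66 and 8.87 in wild type, over genes selected for differing on these arrays. Of 3 named fibroblast markers (of 14), 1 was higher and 2 lower. The higher one was Mmp2, which was also the named gene closest in profile to Thbs2. The mean level of the 3 fibroblast markers was 8.12 and 9.10 in hcatTg, against 7.98 and 9.49 in wild type. Of 3 named leukocyte markers (of 12), 1 was higher and 2 lower, with a mean level of 5.50 and 6.19 in hcatTg, against 5.94 and 6.93 in wild type. Of 15 endothelial markers the table names Kdr and Eng, and the others were not analysed here. Kdr was higher and Eng lower in hcatTg, and these 2 genes do not establish the labelled cell type. The wild type values of Kdr, 5.63 and 4.67, were below the array medians of 5.75 and 6.02. A level of Kdr above background is therefore not shown in wild type cells. Eng, the endoglin gene, lay at 8.40 and 8.71 in hcatTg, against 9.57 and 10.15 in wild type. No marker was listed at 0, since log2 array values have no true 0.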

How the data were processed

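Total RNA of 2 hcatTg and 2 wild type cultures was measured on Affymetrix Mouse Gene 1.0 ST arrays. The deposited value table holds log2 values of 35557 clusters. Per the submitters' processing notes they come from Affymetrix Expression Console; its version, the annotation and the build are not stated there. The deposited table of 398 probe sets gives, per the file headers, log2 RMA signals of the first pair, a linear ratio and signed fold changes (a score below 0 where wild type was higher) for both pairs. Every listed probe set differs at least 2-fold in both. Its second folds equal the second-pair differences to within 9e-05 log2 units. Its first-pair log2 folds differ from those computed here by a median of 0.129 and at most 1.05. Gene names come only from it, and 385 were matched by accession to RefSeq, 41 to another symbol.

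Differences are hcatTg minus wild type. limma 3.58.1 (R 4.3.3, lmFit and eBayes) was fitted to all clusters. The fit was also run on simulated independent noise, which checks only that set changes are recovered on average. That noise held no array shift and no array pairing, so it says nothing on how these affect the calls. The authors' table pairs the arrays by number, and deviations of same-numbered arrays from their genotype means had r = 0.689 over all clusters (clusters are not replicates). With 2 arrays a genotype, the number of arrays limits the precision, and p-values reflect only how far these RNA samples differ. The genes, the lists and the named genes were chosen with earlier results of these data known. The rule named the 3 genes, the 3 nearest named profiles of other genes for each, their neighbours in the order of the smaller pair difference, and up to 4 genes per list by size of difference. Sema3e, Serpinf1, Adamts1 and Cd47 lie outside it and were chosen after their values were seen; marker genes of the rule are named in part. The motifs were also chosen then. Alternatives were scale, block, filters and arrays left out.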

Additional observations from a re-analysis of the deposited data

How the results depend on the processing

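Thbs2, Tnfsf15 and Igfbp6 were higher in hcatTg under every setting tried for them. This direction was bound to hold when 1 array was left out, since for each gene both hcatTg arrays lay above both wild type arrays. Median centring, quantile normalization and the RMA signals of the authors' deposited table moved none of the 3 differences by more than the spread between arrays. The deposited table could move only the first pair, since its second folds equal the second-pair differences to within 9e-05 log2 units. With 2 arrays a genotype the spread is wide, so staying within it is a weak criterion. Leaving out 1 array in turn gave 2.62 to 4.19 log2 units for Thbs2, 2.47 to 5.79 for Tnfsf15 and 3.12 to 5.43 for Igfbp6. The 134 clusters at least 2-fold higher in both pairs became 178 with median centring and 181 with quantile normalization, and 29 at 4-fold. The limma count of 3 was unstable, and the cause was not tested except where arrays or clusters were left out. It was 1161 with the replicate block, whose adjusted p followed the size of the mean difference in the listed genes. With the replicate block and median centring it was 24, and with an intensity trend 42. It was 52 when 6636 clusters with numbers under that of any named probe set were dropped. It was 0 with median centring, quantile normalization, and the replicate block with quantile normalization (975, 1253 and 4189 clusters at an unadjusted limma p below 0.05). Leaving out 1 array gave 0 to 192 calls: 0 without either hcatTg array (440 and 1340 at an unadjusted p below 0.05), 103 without wild type array 1 and 192 without wild type array 2. The remaining array of that genotype was taken to vary as the other genotype does.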
